A study of Homo sapiens with 3 samples.

Results

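H19 and 9 of its neighbours at 11p15.5, near the telomere of the short arm of chromosome 11, were examined in 5637, an established human bladder cancer cell line, and in a gemcitabine-resistant derivative of it. The 10 genes (IFITM10, CTSD, SYT8, TNNI2, LSP1, TNNT3, MRPL23, H19, IGF2 and CD81), of 29960 genes in the deposited table, were selected on their lower counts in the resistant libraries. Their resistant to parental ratios are therefore given as a description, without a test. Gemcitabine is a nucleoside analogue that blocks DNA synthesis. By the study's methods the derivative was made by repeated exposure to rising gemcitabine concentrations, whereas the labels call the treatment acute, and it was then kept without the drug. Each library was made from a single-cell clone. The libraries used were Parental 1 (labelled genotype WT, untreated) and Resistant 1 and Resistant 2 (labelled genotype Gemcitabine Resistant, untreated). Both resistant clones descend from 1 derivative of 1 line, and the parental group is 1 library, so that the spread between parental clones was not measured here.

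H19 is an imprinted gene, copied from the maternal chromosome into a long noncoding RNA. IGF2, the gene for an insulin-like growth factor, lies next to it and is usually copied from the paternal chromosome. An imprinting control region between them, bound by the insulator protein CTCF on the maternal chromosome, decides which of the pair uses the enhancers on the far side of H19. H19 RNA is abundant in the fetus and is often found in bladder tumours. It is also the precursor of miR-675. Toward the telomere lie TNNT3 and TNNI2, which encode the fast skeletal muscle forms of troponin T and troponin I, with LSP1, SYT8, CTSD and IFITM10. CD81 lies on the other side of IGF2.

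The 2 mature miRNAs carried within the H19 exons are shown because their precursor had no read in either resistant library. Capitals mark the seed, bases 2 to 8 (RefSeq, GRCh38.p14, chromosome 11, minus strand, 1996800 to 1996822 for the 5p arm and 1996768 to 1996787 for the 3p arm).
hsa-miR-675-5p: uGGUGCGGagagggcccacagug
hsa-miR-675-3p: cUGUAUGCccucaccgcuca
Of 2545 mature human miRNAs in the same table, 1 other shared the seed of the 5p arm and 0 others shared that of the 3p arm. LSP1 overlaps 2 further miRNA genes, hsa-miR-4298, in an intron on the opposite strand, and hsa-miR-7847-3p, in an exon. Poly-A libraries do not measure mature miRNAs, and none of these was quantified.

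RefSeq promoters, from 250 bases before the start to 50 bases after it, were at hand for 2 of the 10 genes. They are H19, which had no resistant read, and CTSD, which kept 59.1% and 44.8% of its parental level in the resistant libraries, and both are shown on their own strand, with each CpG dinucleotide in capitals (GRCh38.p14, chr11:2001217-2001516, minus strand, for H19 and chr11:1763878-1764177, minus strand, for CTSD).
H19: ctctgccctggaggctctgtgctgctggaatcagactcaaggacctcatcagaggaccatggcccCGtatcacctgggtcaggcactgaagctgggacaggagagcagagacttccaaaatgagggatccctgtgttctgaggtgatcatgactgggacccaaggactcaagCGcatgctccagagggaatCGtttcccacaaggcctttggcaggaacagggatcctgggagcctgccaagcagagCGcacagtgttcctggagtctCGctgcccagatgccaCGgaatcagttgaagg
CTSD: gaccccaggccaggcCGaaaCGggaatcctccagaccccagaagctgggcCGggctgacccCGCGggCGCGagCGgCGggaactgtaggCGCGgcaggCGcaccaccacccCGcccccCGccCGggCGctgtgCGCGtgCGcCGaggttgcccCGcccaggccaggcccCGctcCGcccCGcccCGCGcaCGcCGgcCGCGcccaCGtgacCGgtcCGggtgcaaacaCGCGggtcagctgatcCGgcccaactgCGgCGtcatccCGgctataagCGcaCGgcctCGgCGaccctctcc
The H19 window held 6 CpGs and the CTSD window 43, against a median of 14 over 35116 promoters of the same length, of which 63.2% held more CpGs than H19 and 4.19% more than CTSD. GC content was 57.7% in the H19 window and 77.3% in the CTSD window. The GC box GGGCGG, searched on both strands, matched 5 times for CTSD and 0 times for H19, and 45.0% of promoters held a match. The E-box CACGTG matched once in the CTSD window, as in 7.26% of promoters, and neither window held TATAAA (11.5% of promoters) or CCAAT (34.6% of promoters). These matches describe letters only, and methylation was not measured. Gene counts do not tell which start of a gene was used, and any start outside these windows is not covered.

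Total counts on genes were 14475531 in Parental 1, 15836788 in Resistant 1 and 17461941 in Resistant 2. Levels are given as CPM, read counts scaled to library size and then by TMM, and levels of different genes are compared only as the deposited FPKM, which is per length of transcript. Intervals cover counting error only. As in any bulk library, fewer cells with a transcript and less of it per cell cannot be told apart. The 12 urothelial and basal epithelial markers summed to 10140, 7451 and 7666 CPM in Parental 1, Resistant 1 and Resistant 2. KRT19, KRT8 and KRT7 made up most of each sum, and UPK2 had 3, 9 and 5 counts. The sums show epithelial cells and do not identify the line. The basal keratins KRT5 (271 CPM in Parental 1, 9.79 and 13.8 in the resistant libraries) and KRT17 (196 CPM, then 17.2 and 53.3) were also lower with resistance. Of the skeletal muscle markers, 9 of 12 were listed and summed to 10.6, 11.02 and 9.38 CPM, with MYL1 at 0 in all libraries. The leukocyte markers (7 of 8 listed) summed to 169, 189 and 187 CPM, nearly all of it LCP1, and PTPRC had 4, 3 and 2 counts. Fibroblast markers (6 of 7 listed) summed to 199, 196 and 225 CPM, of which COL1A1 and COL1A2 made up most, with LUM at 0 throughout. None of the muscle, leukocyte and fibroblast sums was lower in both resistant libraries. The part of the lower keratins in any result was not tested.

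Per length, CTSD had the highest parental level of the 10 genes, 145.5 FPKM, followed by MRPL23 at 70.0 and H19 at 69.0. MRPL23 and H19 did not differ beyond counting error (ratio 1.01, 95% interval 0.940 to 1.10). H19 ranked 854 among 21438 genes with a read in Parental 1. CD81 (25.9 FPKM), IGF2 (20.04) and TNNT3 (17.5) came next, and IFITM10 (12.9), TNNI2 (7.79), SYT8 (4.61) and LSP1 (2.64) were lowest. Each of these neighbours in the parental order differed beyond counting error, the nearest being IGF2 and TNNT3 (ratio 1.15, 1.02 to 1.30). In Resistant 1 the order was CTSD, MRPL23, IGF2, CD81, IFITM10, LSP1, SYT8, TNNI2 and TNNT3, where the last 5, between 0.763 and 0.355 FPKM, could not be told from their neighbours by counting. In Resistant 2 the order of the first 4 was the same, and the last 5 ran from SYT8 at 1.09 FPKM through IFITM10, TNNI2 and LSP1 to TNNT3 at 0.184. There only TNNI2 and LSP1, at 0.922 and 0.260 FPKM, differed as neighbours among the last 5. H19, in the third place in Parental 1, came last in both resistant libraries.

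**Figure D1:**
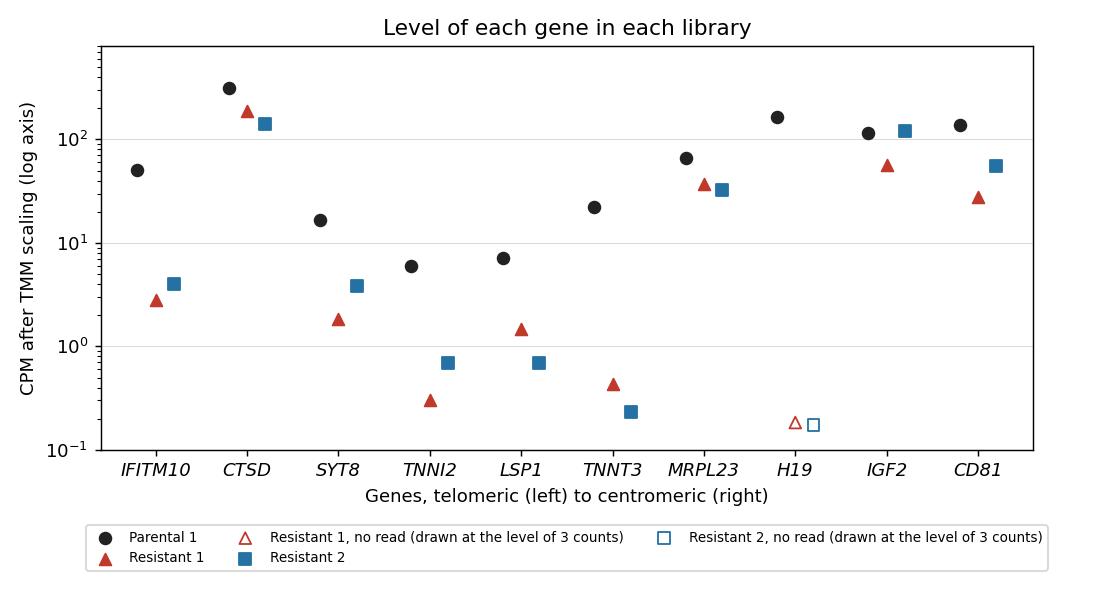
CPM after TMM scaling (log axis) of each gene in Parental 1, Resistant 1 and Resistant 2, with genes in chromosomal order from the telomere. Open symbols mark H19 in the resistant libraries, where it had no read and is drawn at the level of 3 counts. All genes but IGF2 sit lower in both resistant libraries than in Parental 1, and IGF2 in Resistant 2 (122 CPM) sits beside Parental 1 (115 CPM).

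H19 (ENSG00000130600, chromosome 11, 2016406 to 2022700, minus strand, hg19) had 2344 counts in Parental 1 and 0 in both resistant libraries. Its parental level was 166 CPM, or 0.0162% of all counted reads (exact 95% interval 0.0155 to 0.0169%). A floor of 3 counts per library, the limit that a count of 0 allows, corresponds to 0.184 CPM in Resistant 1 and 0.173 CPM in Resistant 2. H19 was thus at least 933-fold lower in the resistant libraries, by at least 905-fold in Resistant 1 and 962-fold in Resistant 2. The authors' mean of normalized counts, which pools libraries not used here, was 3892 for the parental and 0 for the resistant group.

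IGF2 (ENSG00000167244, 2150342 to 2170833, minus strand) was the only one of the 10 that was not lower in both resistant libraries. It had 1620 counts in Parental 1, 932 in Resistant 1 and 2115 in Resistant 2, which are 115, 57.0 and 122 CPM. Resistant 1 was at 49.7% of Parental 1 and Resistant 2 at 106%, and the parental value lay between the resistant ones, so the groups overlapped. On the log2 scale, with counting intervals, Resistant 1 differed from Parental 1 by -1.01 (-1.13 to -0.89) and Resistant 2 by 0.08 (-0.01 to 0.18). The mean of the pair gave a log2 ratio of -0.36, whose direction rests on Resistant 1. The authors' means were 1841 for the parental and 1312 for the resistant group. IGF2-AS, an antisense gene that overlaps IGF2 over 8164 bases, had 11, 14 and 28 counts (edgeR log2 0.66, SE 0.78, adjusted p = 0.900). Whether reads were assigned by strand is not given in the sources used here, so reads of overlapping genes cannot be told apart. Neither the parental origin of these transcripts nor DNA copy number was measured.

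Both fast skeletal troponins were low in the resistant libraries. TNNT3 (ENSG00000130595, 1940792 to 1959936, plus strand), the tropomyosin-binding subunit, had 315 counts in Parental 1, 7 in Resistant 1 and 4 in Resistant 2. These are 22.3, 0.428 and 0.230 CPM, and the resistant libraries kept 1.92% and 1.03% of the parental level. The mean difference was 62.3-fold (log2 ratio -5.96), and the counting intervals were -7.03 to -4.64 for Resistant 1 and -8.48 to -5.23 for Resistant 2. TNNI2 (ENSG00000130598, 1860219 to 1862910, plus strand), the inhibitory subunit, had 84, 5 and 12 counts, or 5.96, 0.306 and 0.691 CPM, a mean log2 ratio of -3.50 (11.3-fold). Its resistant values were 5.14% and 11.6% of the parental one. Both genes were thus far below Parental 1 in each resistant clone, and on 4 to 12 counts the resistant clones could not be ranked.

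Of the genes for membrane and vesicle proteins, IFITM10 was changed most. IFITM10 (ENSG00000244242, 1753640 to 1771821, minus strand) belongs to the interferon-induced transmembrane family and is the most telomeric of the 10. It had 711 counts in Parental 1, 46 in Resistant 1 and 69 in Resistant 2, or 50.4, 2.82 and 3.97 CPM, and was 14.7-fold lower on average (log2 ratio -3.88). SYT8 (ENSG00000149043, 1848709 to 1858751, plus strand), of the synaptotagmins that act in vesicle fusion, had 236, 30 and 67 counts, or 16.7, 1.84 and 3.86 CPM. It was 5.83-fold lower (log2 ratio -2.54), at 10.97% of the parental level in Resistant 1 and 23.1% in Resistant 2. CD81 (ENSG00000110651, 2397407 to 2418649, plus strand), a tetraspanin that organises receptors in the cell membrane, is the most centromeric of the 10. It had 1961, 456 and 959 counts, or 139, 27.9 and 55.2 CPM, and was 3.34-fold lower (log2 ratio -1.74). No resistant value of these genes reached the parental one, and Resistant 1 was the lower of the resistant pair for each of them.

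LSP1 (ENSG00000130592, 1874200 to 1913497, plus strand), an actin-binding protein known from leukocytes, had 101 counts in Parental 1, 24 in Resistant 1 and 12 in Resistant 2. In CPM these are 7.16, 1.47 and 0.691, a log2 ratio of -2.70 (6.49-fold). C11orf89, which overlaps LSP1 on the other strand, had 8, 3 and 2 counts. For LSP1 the counting interval of the log2 ratio to Parental 1 ran from -2.99 to -1.63 in Resistant 1 and from -4.37 to -2.51 in Resistant 2. LSP1 was thus lower in each clone beyond counting error.

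CTSD and MRPL23 differed least among the genes that were lower in both resistant libraries. CTSD (ENSG00000117984, 1773982 to 1785222, minus strand), the lysosomal protease cathepsin D, had 4472, 3061 and 2470 counts in Parental 1, Resistant 1 and Resistant 2. Its levels were 317, 187 and 142 CPM, a log2 ratio of -0.94 (1.92-fold). MRPL23 (ENSG00000214026, 1968508 to 2005752, plus strand), a protein of the large mitochondrial ribosome subunit, had 931, 612 and 569 counts, or 66.0, 37.5 and 32.8 CPM, a log2 ratio of -0.91 (1.88-fold). MRPL23 lies between TNNT3 and H19. Among the genes lower in both resistant libraries, the smallest mean difference thus stood beside the largest. TNNT3 kept 1.92% and 1.03%, MRPL23 56.8% and 49.6%, and H19 less than 0.110% and 0.104% of the parental level. CTSD likewise lies next to IFITM10, which kept 5.59% and 7.88%. The antisense gene MRPL23-AS1 had 3, 0 and 3 counts.

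In all, 9 of the 10 genes were lower in both resistant libraries, against 34.5% of 14846 genes tested. At least 2-fold lower in both were 7 of 10 (all but CTSD, MRPL23 and IGF2), against 3.05% of genes tested. The median log2 ratio of the 10 was -2.62, against 0.02 over all genes tested. Since the genes were selected on this difference, nothing is read from these counts. All 10 passed the filter of a mean of 10 counts over the 3 libraries, H19, TNNT3 and TNNI2 by their parental counts alone.

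The resistant clones differed from each other at several of the genes. IGF2 was higher in Resistant 2 than in Resistant 1 by 1.09 on the log2 scale (95% counting interval 0.98 to 1.21), CD81 by 0.98 (0.82 to 1.15) and SYT8 by 1.07 (0.43 to 1.74). CTSD was lower in Resistant 2, by -0.40 (-0.47 to -0.32), as were MRPL23, by -0.19 (-0.36 to -0.03), and LSP1, by -1.09 (-2.22 to -0.03). IFITM10 (0.50, -0.06 to 1.07), TNNI2 (1.17, -0.43 to 3.03) and TNNT3 (-0.90, -3.12 to 1.08) had intervals that held 0. CTSD and SYT8, adjacent among the 10, had opposite signs, while IGF2 and CD81, also adjacent, were both higher in Resistant 2. Whether the sign follows the order on the chromosome was not tested. With 1 library a clone, a difference between clones cannot be told from one between cultures or libraries, and no test was made.

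**Figure D2:**
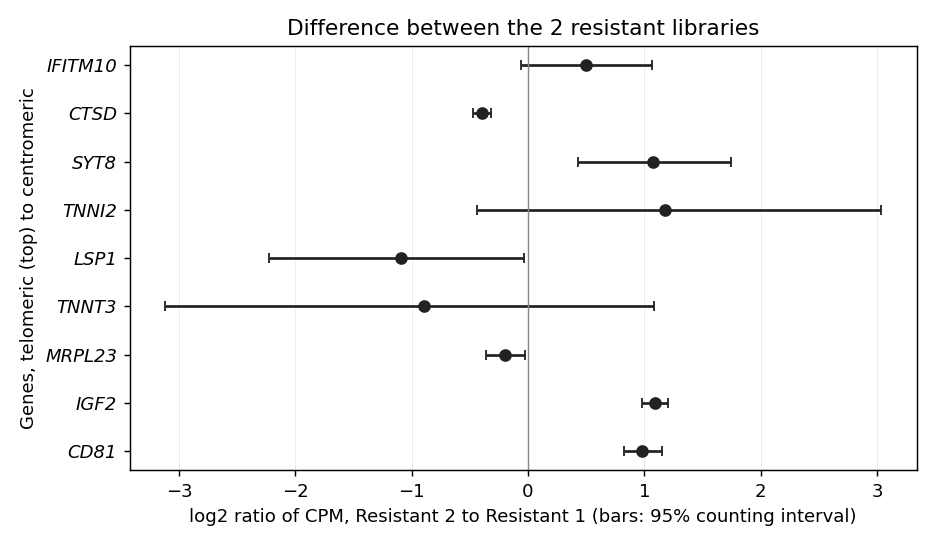
Log2 ratio of CPM in Resistant 2 to that in Resistant 1 for the 9 genes with reads in both, in chromosomal order from the telomere (top), with 95% counting intervals as bars. IGF2, CD81 and SYT8 lie near 1 with intervals above 0, CTSD, MRPL23 and LSP1 lie below 0, and the intervals of IFITM10, TNNI2 and TNNT3 cross 0.

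The genes around the 10 were then compared, with edgeR's quasi-likelihood test across all genes of the 3 libraries. With 1 parental library the spread came from the resistant pair, and Parental 1 was assumed to vary as they do. Over all genes 58 (0.391%) were called lower and 20 (0.135%) higher with resistance at an adjusted p under 0.05. With library size alone as the scaling 124 were lower and 95 higher, and with DESeq2, which changes the test as well as the size factors, 126 were lower and 122 higher. At an unadjusted p under 0.05, 709 genes (4.78%) were lower and 719 (4.84%) higher. Between IFITM10 and CD81 the table lists 17 further genes, of which 5 had enough reads to test, and edgeR called 0 of them (1 at an unadjusted p under 0.05, 0 by DESeq2). The median log2 ratio of the 5 was -1.01, and 3 were lower in both resistant libraries, against 34.5% of all genes tested. The interval was set by genes selected for their fall, so these values are a description only. TH, the gene for tyrosine hydroxylase next to IGF2, had 80, 3 and 54 counts (log2 -1.77, SE 1.05, adjusted p = 0.680). In CPM these are 5.67, 0.184 and 3.11, so TH was lower in both resistant libraries, and far more so in Resistant 1. AC068580.6, antisense within CTSD, had 98, 50 and 44 counts (log2 -1.31, SE 0.51, adjusted p = 0.457), and AC068580.5, in an intron of CTSD, had 50, 30 and 29 (log2 -1.01, SE 0.58, adjusted p = 0.667). AC068580.7, a noncoding gene beside CTSD, had 29, 46 and 16 counts (log2 -0.14, SE 0.77, adjusted p = 0.988). INS, ASCL2 and TSPAN32, also in the interval, had at most 2 counts in any library. AC129929.5 and AC051649.12, which overlap CD81 and LSP1, had at most 1 count.

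Beyond the interval most tested genes were also lower in both resistant libraries, by a smaller amount than most of the 10. On the telomeric side 47 of 77 listed genes were tested, with a median log2 ratio of -0.60, and 35 were lower in both resistant libraries. On the centromeric side, for genes starting before 4 Mb, 15 of 34 were tested, with a median of -0.73, and 13 were lower in both. Of the 6 tested genes starting between 4 and 6 Mb, 0 were lower in both, so these values depend on where the flank ends. Over chromosome 11 the median of 813 tested genes was -0.31, with 57.3% lower in both, against 34.5% of all genes tested. By edgeR 0 of the flank genes were called in either direction (at an unadjusted p under 0.05, 11 of 47 telomeric and 5 of 15 centromeric genes were lower, against the 4.78% of all genes tested). The first tested gene outside IFITM10 was DUSP8, a phosphatase of MAP kinases, with 22, 24 and 120 counts (log2 1.42, SE 0.92, adjusted p = 0.716). The first outside CD81 was TSSC4, with 997, 610 and 885 counts (log2 -0.68, SE 0.35, adjusted p = 0.614).

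The centromeric flank holds the other imprinted domain of 11p15.5. CDKN1C, an inhibitor of cyclin-dependent kinases copied from the maternal chromosome, had 616, 142 and 270 counts, or 43.7, 8.69 and 15.54 CPM. Its log2 ratio of -1.85 (SE 0.42) had an adjusted p of 0.136 by edgeR and 0.034 by DESeq2. PHLDA2, also copied from the maternal chromosome, was on the other side of the parental value, with 1322, 1979 and 2558 counts (log2 0.52, SE 0.36, adjusted p = 0.740). KCNQ1OT1, the paternally copied noncoding RNA of the domain, had 87, 70 and 62 counts (log2 -0.65, SE 0.51, adjusted p = 0.791). SLC22A18, which lies between CDKN1C and PHLDA2, had 135, 165 and 167 counts (log2 0.04, SE 0.44, adjusted p = 0.925). CDKN1C was thus lower in both resistant clones but kept reads there, where H19 had none, while PHLDA2 was not lower in either. CDKN1C, PHLDA2, KCNQ1OT1 and SLC22A18 were chosen after their values were seen.

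The 10 genes were selected on this ratio and the flank genes were not, so their places among the 62 tested flank genes are a description only. H19, TNNT3, IFITM10, TNNI2, LSP1 and SYT8 each had a lower mean log2 ratio than all 62. CD81 was lower than all but 3 of them (IFITM2, CDKN1C and MUC5AC). CTSD and MRPL23 lay within the flank values, with 12 and 13 flank genes lower, and stood 0.28 and 0.25 below the flank median of -0.66. IGF2 was 0.30 above that median. IFITM2, of the same family as IFITM10, was the lowest flank gene, with 48, 18 and 11 counts. In Resistant 1 taken alone, CDKN1C and CHRNA10 (55, 11 and 30 counts) were below LSP1. MUC5AC, with 19, 0 and 13 counts, was there below LSP1, SYT8, TNNI2 and IFITM10, with a ratio set by the prior count of 0.5. In Resistant 2 taken alone, IFITM2 was below SYT8.

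**Figure D3:**
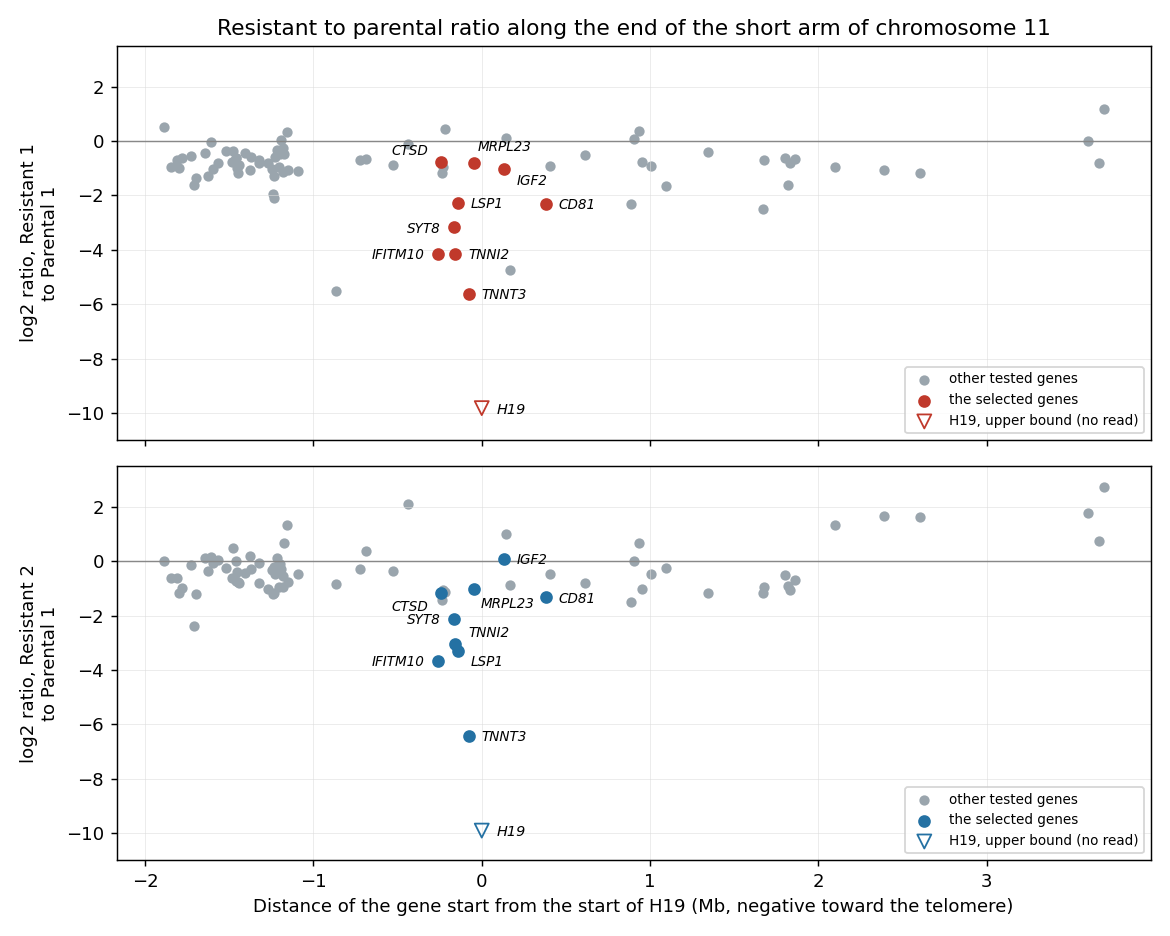
Log2 ratio to Parental 1 of Resistant 1 (top) and Resistant 2 (bottom), against the distance of each gene's start from that of H19 in Mb, for genes that were tested. Grey points are other genes, coloured points the selected genes, and the open triangle the upper bound of H19, and a gene with 0 counts (MUC5AC in Resistant 1) is drawn with a prior count of 0.5. Most grey points near H19 lie between 0 and -2, MRPL23, CTSD and IGF2 lie among them, and the genes starting beyond 4 Mb stand above 0 in Resistant 2.

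Relatives of the 10 genes, by protein family or complex, were compared in the same way. Of 103 listed relatives 88 were tested, and edgeR called 0 lower and 0 higher, against 0.391% and 0.135% of all genes tested. At an unadjusted p under 0.05, 8 were lower and 4 higher, against 4.78% and 4.84% of all genes tested. Of the 8, IFITM2, IFITM3 and CD151 were also counted among the telomeric flank genes, and SYT7 and SYT12 lie elsewhere on chromosome 11. By DESeq2 3 were lower and 1 higher, against 126 and 122 of 14846 genes. With shares so small over all genes, nothing is read from the 0 edgeR calls. Among 7 tested troponins and tropomyosins the median log2 ratio was -0.24. TNNT1, the slow skeletal troponin T and the most expressed troponin here, had 1791, 1146 and 2564 counts, with an adjusted p of 0.954. Both tested IFITM genes, which also lie at 11p15.5, were lower in both resistant libraries, with a median of -1.61. IFITM3, a restriction factor for viruses, had 525, 239 and 278 counts (log2 -1.28, SE 0.35, adjusted p = 0.243), and IFITM1 had 2, 0 and 0.

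The 13 tested tetraspanins had a median of -0.55. The lowest adjusted p was that of CD37, with 621, 182 and 198 counts (log2 -1.97, SE 0.35, adjusted p = 0.058 by edgeR and 0.005 by DESeq2). The 5 partners of CD81 (IGSF8, PTGFRN, CLDN1, ITGA3 and ITGB1) had a median of 0.28, and 2 of 5 were lower in both. Among 7 synaptotagmins the median was -0.23, and SYT12 stood close to SYT8, with 592, 194 and 48 counts (log2 -2.52, SE 0.67, adjusted p = 0.218 by edgeR and 0.023 by DESeq2). Among 9 cathepsins the median was 0.20, with CTSS at 26, 179 and 180 counts (log2 2.53, SE 0.54, adjusted p = 0.112 by edgeR and 0.017 by DESeq2) and CTSH at 3117, 1611 and 1087 counts (log2 -1.46, SE 0.38, adjusted p = 0.207 by edgeR and 0.04997 by DESeq2). The 45 tested genes for the large mitochondrial ribosome subunit had a median of -0.02, and only MRPL46 of them had a lower ratio than MRPL23 (38, 15 and 24 counts). CD37, CD151, SYT7, SYT12, CTSS, CTSH, MRPL46, TNNT1 and the IFITM genes were chosen after their values were seen.

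**Figure D4:**
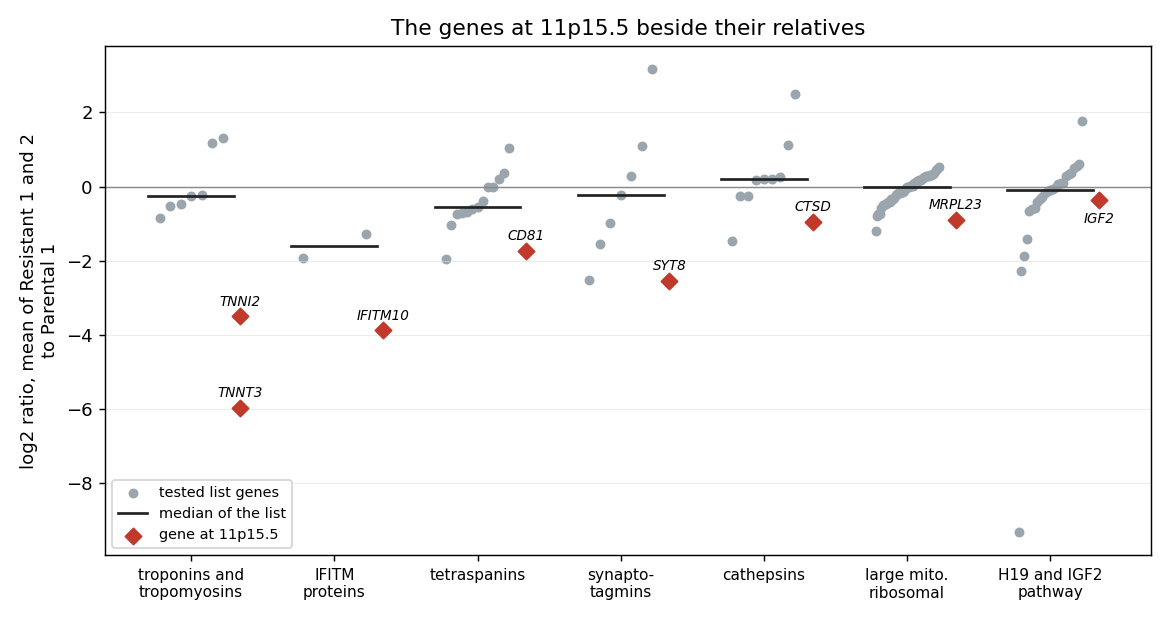
Log2 ratio of the mean of Resistant 1 and Resistant 2 to Parental 1 for the tested genes of each list (grey, sorted), with the list's median as a bar and the gene or genes of the selected 10 beside it (red). TNNT3, TNNI2 and IFITM10 lie below every gene of their lists, SYT8 (-2.54) lies beside SYT12, and the lowest grey point of the last list is IGFBP5. The red genes were selected on this ratio, so their places are a description only.

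The genes that act with H19 and IGF2 were examined as a list of growth factor receptors, binding proteins, RNA-binding partners and imprinting factors. Of 30 listed genes 25 were tested, with a median log2 ratio of -0.08. By edgeR 2 were called lower and 0 higher, against 0.391% and 0.135% of all genes tested. IGFBP5, which binds insulin-like growth factors outside the cell, fell from 1847 counts in Parental 1 to 1 in Resistant 1 and 5 in Resistant 2 (log2 -9.46, SE 0.55, adjusted p = 0.000596). IGFBP3, the main carrier of these factors in blood, fell from 4013 counts to 776 and 1227 (log2 -2.27, SE 0.37, adjusted p = 0.044). IGFBP6, which prefers IGF2, had 4163, 1344 and 1386 counts (log2 -1.86, SE 0.33, adjusted p = 0.057). IGF1R, the signalling receptor of IGF2, had 3910, 1786 and 1681 counts (log2 -1.43, SE 0.33, adjusted p = 0.150), and IGF2R, which takes IGF2 to the lysosome, had 7694, 10207 and 9201 (log2 0.08, SE 0.36, adjusted p = 0.985). IGFBP7 was on the other side, with 70, 220 and 360 counts (log2 1.78, SE 0.49, adjusted p = 0.249). CTCF, the insulator protein of the imprinting control region, had 1917, 1703 and 1200 counts (log2 -0.65, SE 0.37, adjusted p = 0.667). IGFBP6, IGF1R, IGF2R, IGFBP7 and CTCF were named after their values were seen. The list itself, with IGFBP5 and IGFBP3 in it, was chosen with earlier results of these data known.

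Genes were ranked by the log2 ratio of the parental CPM to the higher of the resistant CPM, with a prior count of 0.5, to find those most like H19 over the 3 libraries. H19 and the other 9 genes were selected on the same difference in these libraries, so their ranks among 14846 genes are a description, and among genes with 0 counts in both resistant libraries the order follows the parental count. H19 ranked 1, followed by ALDH7A1, a dehydrogenase of lysine breakdown, with 907 counts in Parental 1 and 0 in both resistant libraries, and by MPPED2, on the same chromosome arm (30406040 to 30608419), with 304, 0 and 0. IGFBP5 came next, then CXCL12, a chemokine, with 164, 0 and 0 counts, and KCNK5, a potassium channel, with 336, 1 and 1. TNNT3 ranked 22, IFITM10 57, TNNI2 69, LSP1 109, SYT8 119, CD81 259, MRPL23 708, CTSD 809 and IGF2 6146. Within 665 kb the 10 genes thus ranged from rank 1 to rank 6146.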

How the data were processed

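RNA was purified on poly-T beads and sequenced by a commercial provider. The authors deposited 1 table. For every gene it gives unnormalized read counts by library and FPKM, which the authors scaled to transcript length and library size. The deposited group signal is the authors' mean of counts divided by a size factor. The columns of their own comparison (a log2 fold change with its raw and adjusted p) were not used, nor were 6 per-library columns of libraries without a label here. The submitters' processing notes name hg19 and CASAVA 1.8. The aligner, counting tool and annotation are not given in the sources used here.

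Counts were scaled by TMM (edgeR 4.0.16, R 4.3.3), with factors of 0.974, 1.03 and 0.995. Genes with a mean of at least 10 counts (14846 of 29960) were fitted in edgeR's quasi-likelihood model, resistant against parental, with 1 residual degree of freedom (biological coefficient of variation 0.277) and Benjamini-Hochberg adjustment. Each p-value set the difference between the groups against a spread taken from 2 clones of 1 derivative and moderated across genes. Log2 ratios used a prior count of 0.5. For H19 3 counts replaced 0. Counting intervals were exact binomial (95%). The steps were tested on simulated counts. The 10 genes and all lists were chosen with earlier results of these data known. Named genes were the 10, those of the interval with a mean of 10 counts, the first tested gene on either side, overlapping transcripts, list genes passing the test (5 a list at most) and the 5 genes most like H19. Exceptions are stated. Pseudogenes were left out of the mitochondrial ribosome list. Alternatives covered DESeq2 1.42.0, library size scaling, no count filter, unadjusted p, prior count 2, FPKM, the authors' means, and leaving out each resistant library. Calculations used Python 3.11.15, numpy 2.4.6, pandas 2.3.3, scipy 1.17.1 and matplotlib 3.10.9.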

Additional observations from a re-analysis of the deposited data

How the results depend on the processing

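The count of genes called lower, 58 by edgeR, was 126 with DESeq2, 124 with library size alone, 261 with no count filter and 709 at an unadjusted p under 0.05, and that of genes called higher, 20, was 122, 95, 273 and 719. In the same order of settings, the 0 relatives called lower became 3, 1, 3 and 8, the 0 called higher 1, 1, 2 and 4. The 2 pathway genes called lower became 4 with DESeq2, with no filter and at an unadjusted p, and the 0 called higher 1 with no filter and at an unadjusted p. The centromeric flank gave 1 gene called lower with DESeq2 and with no filter (CDKN1C) and 5 at an unadjusted p, the telomeric flank 11 and the interval 1 at an unadjusted p only. The median log2 ratio of the 10 genes, -2.62, was -2.09 from the authors' group means and -2.74 to -2.58 when 1 resistant library was left out. The count of genes at least 2-fold lower, 453 in both resistant libraries, was 2085 with no filter and 988 to 1041 in 1 resistant library alone. Without Resistant 1, the log2 ratio of IGF2 turned to 0.084, and it ranged from -1.01 to 0.08 over the libraries left out. Of 63 values recomputed for 9 of the genes (H19 has a bound only), 62 kept their sign and 2 moved by more than the spread between the resistant libraries, both with the authors' means (IFITM10 -3.06, MRPL23 -0.64). The cause of these changes was not tested. Without either resistant library edgeR has no residual degree of freedom, so no test was left. No paired analysis was possible because the groups share only replicate number 1. With no filter, counts near 0 enter, and resistant values of TNNT3, TNNI2 and LSP1 rest on 4 to 24 counts.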

Other observations

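Beyond the centromeric flank, 6 genes starting between 4 and 6 Mb were tested, and they stood apart between the resistant clones. Their median log2 ratio to Parental 1 was -0.87 in Resistant 1 and 1.65 in Resistant 2, where that of the genes between CD81 and 4 Mb was -0.79 in both. RRM1, the large subunit of ribonucleotide reductase, which gemcitabine inhibits, had 3092 counts in Parental 1, 1871 in Resistant 1 and 9458 in Resistant 2. TRIM21 had 245, 134 and 956 counts and TRIM68 had 397, 204 and 1525, in the same order. By edgeR 0 of the 6 were called (1 higher at an unadjusted p under 0.05, TRIM22, with 15, 40 and 125 counts, adjusted p = 0.441), since the resistant pair differed from each other. These genes were named after their values were seen. DNA copy number was not measured, and its part was not tested.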
